A study of Mus musculus with 24 samples.

Results

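The chromatin regulators and histone genes described here are the 29 genes of the expression table whose symbols carry family names of such genes, among them Kdm, Kmt, Setd, Hdac, Sirt, Kat, Ncoa, Ncor, Smarc, Chd, Arid, Brd, Ehmt, Ezh, Phf, Prdm, Prmt, Dnmt, Tet, Hist and H2af, out of 2372 genes in all. Kdm5c and the Y-linked Kdm5d match the pattern but are left out; the name pattern itself uses no measured value. RNA of whole liver was sequenced from 24 mice, 12 females and 12 males, all fed the Lieber-DeCarli liquid alcohol diet for 3 weeks. Every mouse had received 2 injections of adeno-associated virus (AAV) vectors carrying short hairpin RNAs, which lower the mRNA that they match. The first injection carried a control hairpin or hairpins against Kdm5b and Kdm5c, which encode demethylases of lysine 4 on histone H3 (the Kdm5 vectors). A control hairpin again, or a hairpin against Ahr, the gene of the aryl hydrocarbon receptor (the AhR vector), made up the other injection. Each sex therefore has 4 groups of 3 mice, with control vectors, the Kdm5 vectors, the AhR vector or both, and no group without alcohol or without vector is among them. The labels give no age, strain or hairpin promoter. The study asks whether KDM5 demethylases act differently in the 2 sexes in alcohol-associated liver disease.

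DNA in the nucleus is wound around histones, and a linker histone, H1, sits where the DNA enters and leaves the particle. Methyltransferases, acetyltransferases and the enzymes that remove their marks change the tails of these histones, readers bind the marks, and remodelers slide or evict the particles. Coactivators and corepressors such as the NCOA and NCOR proteins bring these enzymes to nuclear receptors, the hormone-sensing and lipid-sensing transcription factors that set much of hepatocyte gene expression.

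Among the 29 genes are 7 methyltransferase-family genes (Kmt2a, Kmt2c, Kmt2d, Kmt2e, Setd1b, Setd4 and Setdb2), 1 demethylase gene (Kdm6a), 4 acetyltransferase or coactivator genes (Kat6a, Ncoa2, Ncoa4 and Ncoa7), the corepressor gene Ncor1, the deacetylase genes Sirt3 and Sirt7, 5 remodeler genes (Arid1a, Chd2, Chd6, Chd7 and Smarca2), the DNA demethylation gene Tet2 and 6 histone genes (H2afj, Hist1h1c, Hist1h2bc, Hist2h2aa1, Hist2h2aa2 and Hist2h2be). Genes of the Hdac, Dnmt, Brd and Ezh families were not analysed here. Levels are FPKM, fragments scaled by transcript length and by library size. A gene was tested when it reached 1 FPKM in at least 3 libraries, which held for 28 of the 29. The exception was Ncoa7, which ranged from 0.12 to 1.11 FPKM. Tests used limma on log2(FPKM + 0.5) with Benjamini-Hochberg adjustment over all 2299 tested genes and a threshold of 0.05. A ± after FPKM is the SD of 3 mice and a ± after a log2 difference is its standard error.

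Depth is unknown, because the values are already scaled. Over the 2372 genes, FPKM summed to between 281871 and 326460 in females and between 380206 and 429780 in males. The hepatocyte markers Apoa1, from 6677 to 12749 FPKM, and Hnf4a, from 116 to 248 FPKM, were high in all 24 libraries. The targeted Kdm5c lay between 6.39 and 7.21 FPKM in males with control vectors, 4.64 and 5.89 with the Kdm5 vectors, and 4.86 and 5.36 with both. In females it lay between 9.32 and 11.1 FPKM with control vectors, 9.05 and 9.94 with the Kdm5 vectors, and 9.37 and 12.5 with both. Its change did not pass in either sex under the Kdm5 vectors (limma adjusted p = 0.66 in females and 0.139 in males) or under both (0.84 and 0.0785), and Kdm5b and Ahr were not analysed here.

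On the per-length FPKM scale, the histone genes spanned a wide range. Hist1h2bc, which encodes an H2B, had the highest mean over the 24 libraries, 117.8 FPKM, followed by Ncoa4, whose product delivers ferritin to lysosomes, at 57.5 FPKM. The H2A gene Hist2h2aa1 stood at 48.8 FPKM, the mitochondrial deacetylase gene Sirt3 at 44.7 FPKM and the linker histone gene Hist1h1c at 41.9 FPKM. The large enzymes were lower: Kmt2e, the highest of the methyltransferase family, averaged 7.00 FPKM and Kmt2a, its lowest, 1.55 FPKM. Among remodelers Smarca2, an ATPase of the SWI/SNF complex, was highest at 14.6 FPKM and Chd6 lowest at 1.67 FPKM. Hist2h2be averaged 0.938 FPKM and Ncoa7 0.470 FPKM.

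**Figure D1:**
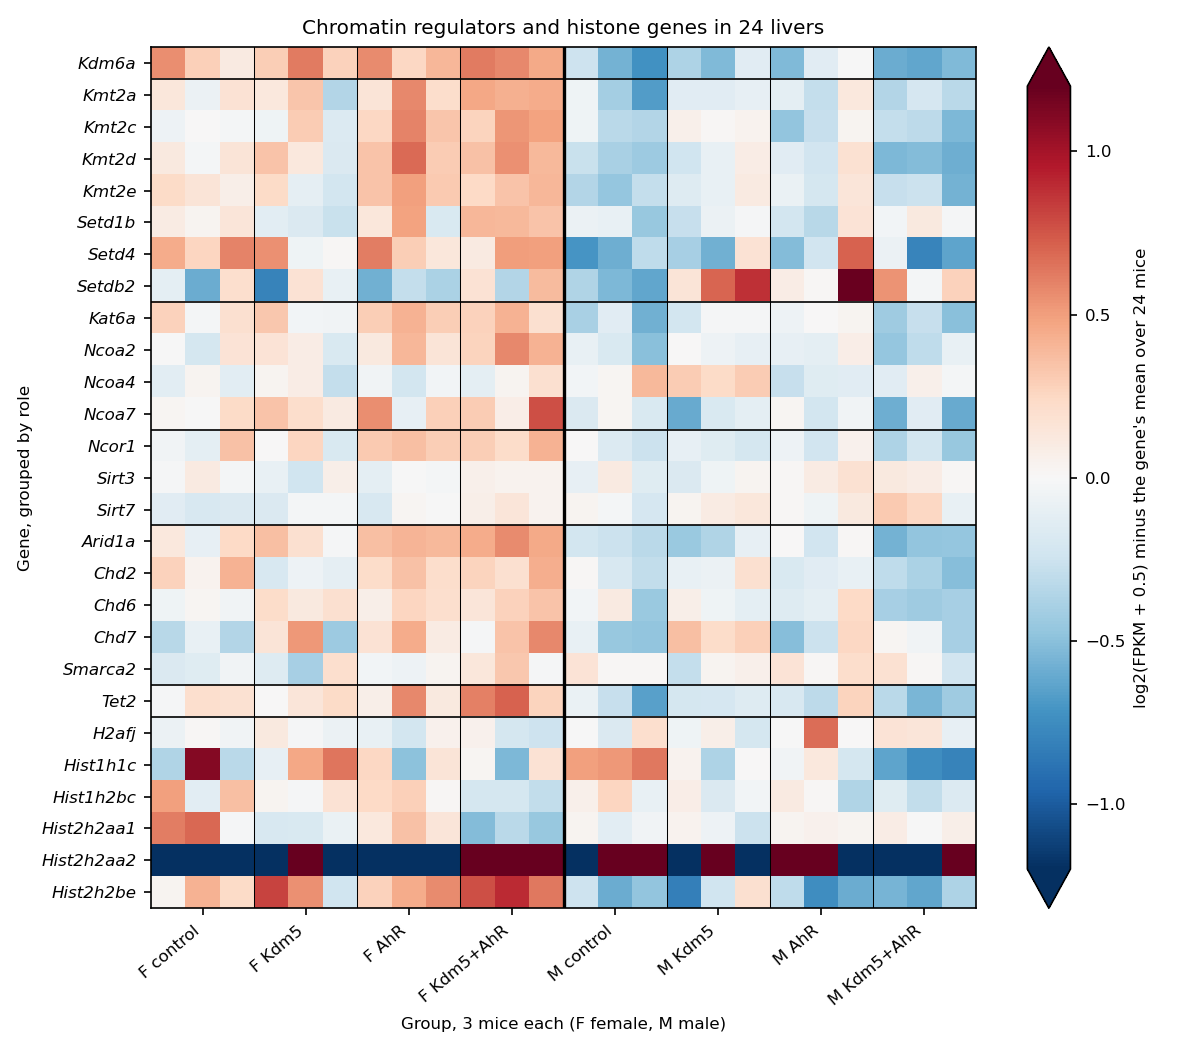
Each row is 1 of 27 genes and each column 1 of 24 mice; colour is log2(FPKM + 0.5) minus the mean of that gene over all mice, and the heavy line divides females from males. Most methyltransferase and remodeler rows are redder in females than in males with both sets of vectors. In females with control vectors or the Kdm5 vectors these rows are paler or mixed. The Hist2h2aa1 row is darkest red in female control mice 1 and 2, and the Hist1h1c row turns blue in males with both sets of vectors. Hist2h2aa2 runs off the scale because it is 0 in 14 libraries.

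Hist2h2aa1 and Hist2h2aa2 lie on chromosome 3 of GRCm38.p6, at 96245497 to 96246052 and at 96239779 to 96240374, and are transcribed away from each other. The whole 528-nt Hist2h2aa2 transcript of GENCODE M21 is identical to a stretch of the 586-nt Hist2h2aa1 transcript, so the assignment of reads between the copies is uncertain. The 250 bases before each start, from RefSeq on GRCm38.p6, are shown because the copies also share upstream sequence: capitals mark their longest common run, 169 bases. The Hist2h2aa1 stretch is chr3:96245247-96245496 on the plus strand and the Hist2h2aa2 stretch is chr3:96240375-96240624 on the minus strand.
Hist2h2aa1: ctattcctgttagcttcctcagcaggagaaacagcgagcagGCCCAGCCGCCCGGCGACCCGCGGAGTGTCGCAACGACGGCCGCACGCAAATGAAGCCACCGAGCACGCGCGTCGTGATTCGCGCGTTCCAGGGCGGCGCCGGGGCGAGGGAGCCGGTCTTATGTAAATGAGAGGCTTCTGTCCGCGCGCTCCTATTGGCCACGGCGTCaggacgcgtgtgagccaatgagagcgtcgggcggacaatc
Hist2h2aa2: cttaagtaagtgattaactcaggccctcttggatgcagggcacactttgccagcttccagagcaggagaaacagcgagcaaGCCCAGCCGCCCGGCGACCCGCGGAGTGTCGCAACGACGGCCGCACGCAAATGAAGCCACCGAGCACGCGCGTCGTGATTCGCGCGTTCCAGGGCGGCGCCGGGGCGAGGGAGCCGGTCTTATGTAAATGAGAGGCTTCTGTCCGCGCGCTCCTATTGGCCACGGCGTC

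Hist2h2aa1 passed in females, under the Kdm5 vectors and under both sets, and in no male comparison with controls. For the Kdm5 vectors alone, the direct test of a difference between the sexes did not pass. With libraries rescaled by median of ratios, that difference was -0.50 log2 (limma adjusted p = 0.177). In females with control vectors it measured 73.5, 77.4 and 47.5 FPKM, and with the Kdm5 vectors 41.8, 42.0 and 45.4 FPKM. All 3 mice with the Kdm5 vectors were below all 3 controls, although the lowest control was close to them. The share of all tested genes separated in this way between groups of 3 mice was not counted, here or for the genes below. The level fell from a mean of 66.1 ± 16.3 to 43.0 ± 2.02 FPKM, a log2 difference of -0.58 ± 0.13 (1.5-fold, limma adjusted p = 0.0129). It was the only 1 of 28 tested chromatin and histone genes to pass under the Kdm5 vectors in females, where 6.87% of all tested genes passed. Without female control mouse 1 the difference was -0.49 and no longer passed (adjusted p = 0.0788). The fitted spread comes from all 24 libraries, and in a fit on these 2 groups alone the adjusted p was 0.158. The 6 sinusoidal endothelial markers of the table summed to between 96.1 and 97.9 FPKM in these females and between 73.1 and 88.2 FPKM in the controls. In females with the AhR vector alone they summed to between 86.9 and 97.4 FPKM. The part of these markers in the result was not tested.

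With both sets of vectors Hist2h2aa1 was lower still, at 33.2, 38.1 and 34.8 FPKM. These 3 mice lay below every other library of either sex. The log2 difference from female controls was -0.86 ± 0.13 (1.82-fold, limma adjusted p = 0.00138), and it passed with any 1 of the 6 mice left out, from -1.09 to -0.74, but not in the fit on the 2 groups alone (adjusted p = 0.0645). With the AhR vector the females measured 52.2, 61.1 and 53.1 FPKM, inside the range of the controls; this group did not pass (adjusted p = 0.506), but without female control mouse 3 it did, at -0.44 log2 (adjusted p = 0.037). Male levels were even: the 12 males lay between 40.1 and 50.9 FPKM, with group means between 45.2 and 49.6 FPKM. The change under both sets of vectors differed between the sexes by -0.96 ± 0.18 log2 (limma adjusted p = 0.00951), female minus male, and that difference passed with any 1 of the 12 mice left out. This difference and the comparisons of Hist2h2aa1 within females share the same 3 female controls.

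Hist2h2aa2 was 0 in 14 libraries, among them all 6 from females with control vectors or the AhR vector alone. Its other values fell near 3 levels, with 5 libraries from 2.63 to 2.76 FPKM, 3 from 5.25 to 5.74 and 2 from 8.39 to 8.54. Females with both sets of vectors had 8.54, 2.64 and 2.75 FPKM, so the copy was listed above 0 in all 3 of the mice in which Hist2h2aa1 was lowest. Males also had values above 0, up to 8.39 FPKM, while their Hist2h2aa1 was even. FPKM does not show how many fragments such values rest on. No fold is given against groups at 0. With both copies summed into 1 value, an alternative added after seeing the data, the female difference was -0.52 under the Kdm5 vectors (limma adjusted p = 0.0276) and -0.69 under both (adjusted p = 0.00629), and the sex difference under both was -0.72 (adjusted p = 0.0281).

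Hist1h1c, which encodes the linker histone H1.2, moved in males. It lies on chromosome 13 at 23738807 to 23739531 of GRCm38.p6. The 250 bases before its start (chr13:23738557-23738806, plus strand, RefSeq) are shown with the letters CCAAT, searched on both strands, in capitals, because this short motif is a known element of H1 promoters.
Hist1h1c: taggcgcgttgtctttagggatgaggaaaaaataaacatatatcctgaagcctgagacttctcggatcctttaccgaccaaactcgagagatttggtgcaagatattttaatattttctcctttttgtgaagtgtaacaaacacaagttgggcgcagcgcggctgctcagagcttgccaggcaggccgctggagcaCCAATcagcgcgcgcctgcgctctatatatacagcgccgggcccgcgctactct
CCAAT was found in 33.8% of 32851 RefSeq promoter windows of this length. A window was found for 19 of the 29 genes and held the motif for 8 of them. A match describes letters only.

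Male controls measured 55.9, 56.8 and 61.7 FPKM of Hist1h1c, and males with both sets of vectors 25.3, 23.4 and 22.5 FPKM. The 3 males with both were the lowest of all 24 mice. The log2 difference was -1.27 ± 0.29 (2.42-fold, limma adjusted p = 0.0241), the only call among the 28 tested chromatin and histone genes for both sets of vectors in males, where 2.35% of all tested genes passed. The call rests on all 6 mice: without any 1 of them the difference stayed between -1.32 and -1.23, but the adjusted p lay between 0.0534 and 0.0983. The Kdm5 vectors alone gave 40.9, 30.6 and 39.6 FPKM and the AhR vector alone 38.5, 43.3 and 34.1 FPKM. Both groups lay below all male controls and above all males with both sets, but their log2 differences of -0.65 ± 0.29 and -0.59 ± 0.29 did not pass (limma adjusted p = 0.447 and 0.382). These comparisons share the male controls.

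In females Hist1h1c was scattered. Controls measured 30.8, 85.7 and 31.6 FPKM, so that 1 female control was the highest library of all and the others were among the lower. With both sets of vectors females had 40.1, 27.1 and 44.6 FPKM, of which the lowest was below every female control and the others within their range, and the log2 difference of -0.26 had a 95% interval from -0.87 to 0.35. The female minus male difference of the effects, 1.02 ± 0.42 log2, did not pass (limma adjusted p = 0.118). This rests on female control mouse 2: without it the difference of effects was 1.5 (adjusted p = 0.0136) under both sets and 1.33 (0.0353) under the Kdm5 vectors, and Hist1h1c was lower in female than in male controls by a log2 difference of -0.89 (0.00414).

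**Figure D2:**
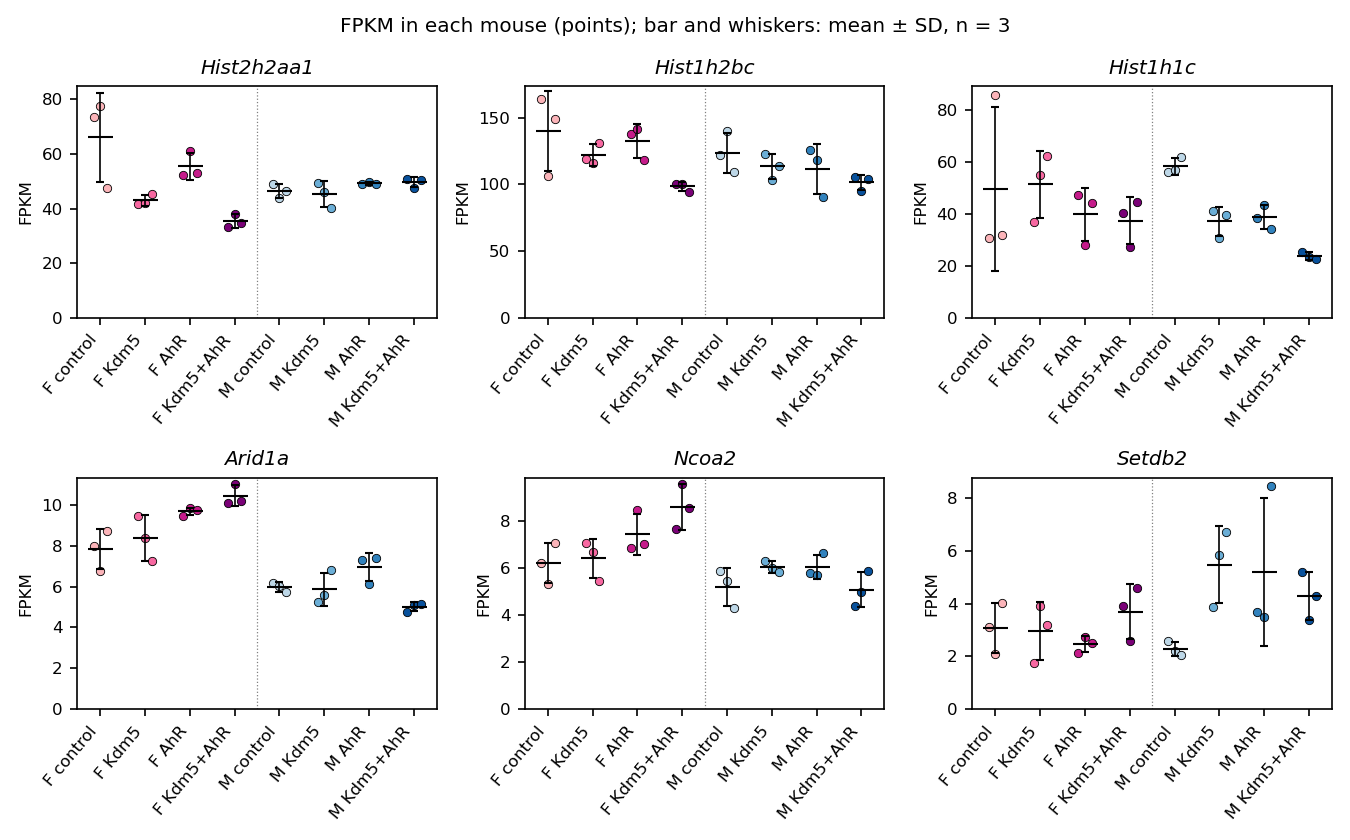
Points are FPKM in single mice for 6 genes in the 8 groups, axes start at 0, and bars with whiskers are mean ± SD of 3 mice. Hist2h2aa1 is lowest in females with both sets of vectors (33.2 to 38.1 FPKM) and even in males, whereas Hist1h1c is lowest in males with both (22.5 to 25.3 FPKM).

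Of the other histone genes, Hist1h2bc fell in females with both sets of vectors. Controls measured 164, 106 and 149 FPKM against 100.5, 100.3 and 94.5 FPKM with both. The groups did not overlap, but control mouse 2 lay close to the treated mice. The log2 difference was -0.48 ± 0.14 (1.40-fold, limma adjusted p = 0.0336), and it passed in only 1 of the 6 fits that leave out a mouse, from -0.36 without control mouse 1 (adjusted p = 0.158) to -0.67. The 3 males with both measured 105, 94.8 and 104 FPKM and did not pass. The H2A.J gene H2afj, at 8.86 to 17.2 FPKM over all mice, passed in none of the 11 comparisons.

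Both sets of vectors together gave 4 calls in females among the 28 tested genes, 2 higher and 2 lower, beside 11.6% of all tested genes (7.79% higher and 3.78% lower). Besides the 2 histone genes that fell, Arid1a and Ncoa2 rose. A further 10 had an unadjusted p under 0.05 and did not pass. The share of all tested genes under that cut was not counted, here or for the unadjusted counts below. These counts are therefore not read as a result about the chromatin and histone genes. After median-of-ratios scaling the split was 4 higher and 2 lower, with Kmt2c (limma adjusted p = 0.0474) among those added. Over the 28 genes the median log2 difference was 0.25, against 0.02 over all tested genes.

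Arid1a encodes the DNA-binding subunit of a SWI/SNF remodeling complex. Female controls measured 8.01, 6.76 and 8.70 FPKM and females with both sets 10.11, 11.03 and 10.21 FPKM. All treated females were above all controls, with a log2 difference of 0.40 ± 0.12 (1.32-fold, limma adjusted p = 0.0335). Male controls had 6.18, 6.02 and 5.74 FPKM and males with both sets 4.75, 5.12 and 5.14 FPKM. The male groups did not overlap either, but in the opposite order, and the male difference of -0.24 did not pass (adjusted p = 0.351). The female minus male difference of effects was 0.64 ± 0.16 log2 (limma adjusted p = 0.0235). It passed in 7 of 12 fits that leave out a mouse, and adjusted p in the other 5 reached 0.06, with differences from 0.54 without female control mouse 2 to 0.66 without male mouse 3 of both sets. Hist2h2aa1 and Arid1a were among 3 of 28 genes whose response to both sets differed between the sexes, beside 5.92% of all tested genes (4.52% with a positive and 1.39% with a negative difference). Chd6 passed as well without male control mouse 3 (0.73 log2, limma adjusted p = 0.0225) and Ncor1 without female control mouse 3 (0.60, 0.0346).

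Ncoa2 encodes a coactivator of nuclear receptors, also called SRC-2 or TIF2. Female controls had 6.24, 5.35 and 7.08 FPKM and females with both sets 7.68, 9.60 and 8.55 FPKM, all above the controls. The log2 difference of 0.44 ± 0.14 passed (1.36-fold, limma adjusted p = 0.0449). Arid1a and Ncoa2 each passed in 1 of the 6 fits that leave out a mouse. Adjusted p reached 0.108 for Arid1a and 0.155 for Ncoa2 without mouse 2 of both sets, and for neither did the fit on the 2 groups alone pass (0.12 and 0.126). Ncor1, which encodes a corepressor that carries histone deacetylase to nuclear receptors, was at 15.1 ± 2.82 FPKM in female controls and 17.9 ± 1.27 with both sets, and at 13.0 ± 1.24 and 11.2 ± 0.963 FPKM in males, with no call for these vectors.

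**Figure D3:**
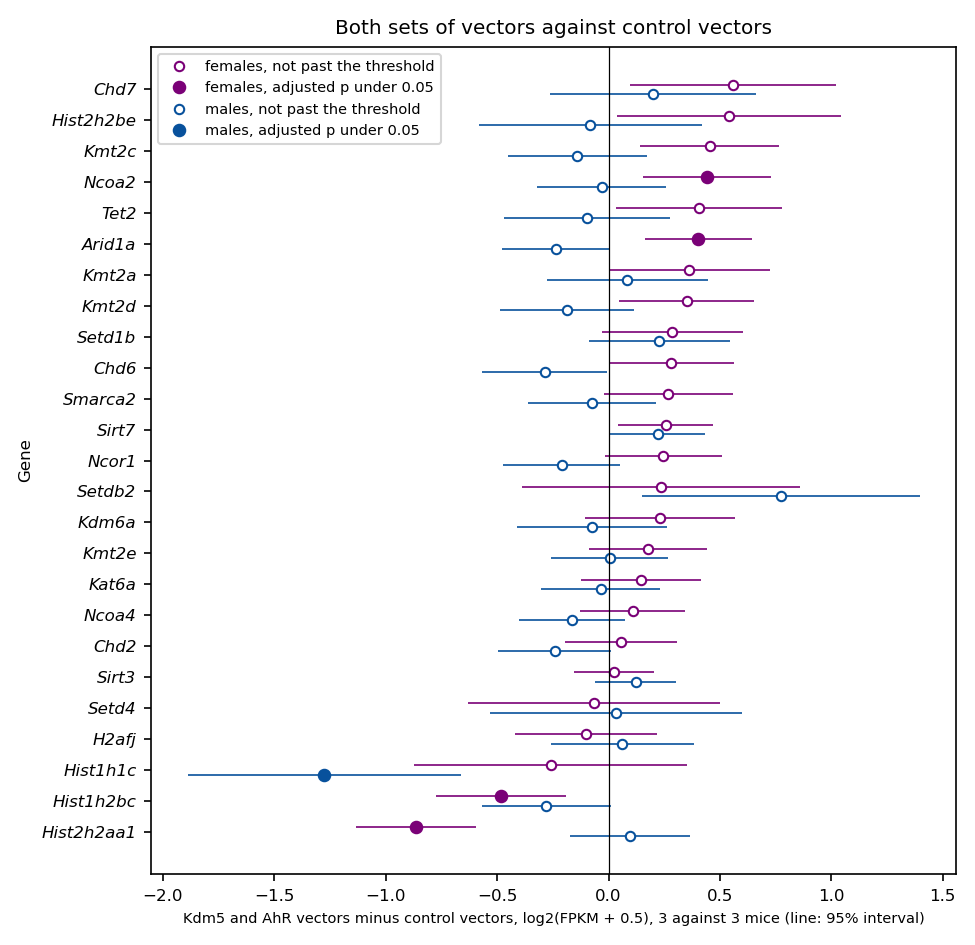
Log2 difference of both sets of vectors against control vectors for 25 tested genes (Hist2h2aa2, 0 in many libraries, is among those left out), females in purple and males in blue, with 95% intervals; filled points passed. Hist2h2aa1 (-0.86) and Hist1h2bc (-0.48) are the filled points to the left in females, Arid1a (0.40) and Ncoa2 (0.44) those to the right, and Hist1h1c (-1.27) is the filled point in males.

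Single sets of vectors gave no other call. In males 0 of 28 passed for the Kdm5 vectors, beside 1.22% of all tested genes, and 5 had an unadjusted p under 0.05. For the AhR vector 0 of 28 passed in females, beside 0.217%, and 0 in males, beside 1.09%, with 4 at an unadjusted p under 0.05 in each sex. The effects of the Kdm5 vectors differed between the sexes for 0 of 28 (1.74% of all tested genes, 5 unadjusted), and those of the AhR vector for 0 (0.565%, 1 unadjusted), all by limma. With 1 mouse left out, Chd2 passed for the Kdm5 vectors in females without control mouse 2 (-0.46 log2, adjusted p = 0.0269), and the Kdm5 effect on Hist2h2aa1 differed between the sexes without female control mouse 3 (-0.76, 0.00749).

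Setdb2, which encodes a methyltransferase-family protein linked to lysine 9 of histone H3, varied widely among the males. Controls measured 2.57, 2.20 and 2.05 FPKM, the Kdm5 vectors gave 3.87, 5.87 and 6.72, the AhR vector 3.69, 3.48 and 8.46, and both 5.20, 3.37 and 4.28 FPKM. Every male with a Kdm5 or AhR hairpin was above every male control, an order whose share among all tested genes was not counted. The log2 differences of 1.08 ± 0.30, 0.94 ± 0.30 and 0.77 ± 0.30 did not pass (limma adjusted p = 0.11, 0.152 and 0.205), and they share the same controls. Without male AhR mouse 3 the difference under the AhR vector was 0.56 (adjusted p = 0.473). Female groups overlapped, from 1.76 to 4.61 FPKM. The span of Setdb2 overlaps that of the protein-coding Gm45935, as Kmt2e does Srpk2, Ncor1 does Ttc19 and Sirt3 does Ric8a. Strand is not stated, so reads from a stretch that such a pair shares cannot be told apart. Spans include introns, and overlap of exons was not examined.

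Sex gave the most calls. Averaged over the 4 vector settings, 16 of 28 tested genes were higher in females and 1 was lower; in all, 60.7% of the 28 passed beside 62.3% of all tested genes, 57.1% were higher beside 42.9%, and 19.4% of all tested genes were lower. Hist2h2be and Tet2 entered the test mainly through females (1 FPKM or more in 10 and 12 females and in 1 and 2 males), so their direction follows in part from that filter. With control vectors alone 11 of 28 were higher and 0 lower, beside 30.8% and 11.6% of all tested genes (42.5% in either direction).

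Kdm6a, the X-linked gene of the demethylase UTX, which acts on lysine 27 of histone H3 and is known to escape X inactivation, was the only 1 with all 12 females above all 12 males, an order seen in 9% of all tested genes. Females ranged from 3.08 to 4.62 FPKM (median 3.96) and males from 1.5 to 2.8 FPKM (median 1.80). The log2 difference was 0.83 ± 0.08 (1.78-fold, limma adjusted p = 2.08e-08). Group means were 3.66, 3.90, 3.91 and 4.35 FPKM in females with control, Kdm5, AhR and both vectors, and 1.85, 2.12, 2.37 and 1.71 FPKM in males, and no vector comparison passed.

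Hist2h2be, which encodes an H2B, was also higher in females. Females ranged from 0.64 to 1.99 FPKM (median 1.40) and males from 0.26 to 1.03 (median 0.44), with some overlap, and the log2 difference was 0.90 ± 0.12 (limma adjusted p = 1.72e-06). Hist2h2be met the filter only through females, so this p-value is not independent of the filter. Setd4, of the SET-domain family, ranged from 2.13 to 3.66 FPKM in females (median 3.02) and from 1.07 to 3.93 in males (median 1.48). A single male with the AhR vector, at 3.93 FPKM, was above all females. The difference was 0.66 ± 0.14 log2 (adjusted p = 0.000237). Setdb2 was the only 1 lower in females, by limma with a log2 difference of -0.38 ± 0.15 (adjusted p = 0.0327), and it lost the call in 9 of 24 fits that leave out a mouse, with adjusted p up to 0.0692; without male AhR mouse 3 the difference was -0.28 (adjusted p = 0.0633). With control vectors alone Setdb2 averaged 3.09 FPKM in females and 2.27 in males, a log2 difference of 0.34 ± 0.30 in the other direction that did not pass (adjusted p = 0.374).

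The other 13 that were higher in females include large histone-modifying and remodeling proteins. Kmt2a, Kmt2c, Kmt2d and Setd1b encode catalytic subunits of complexes that methylate lysine 4 of histone H3, the residue that KDM5 enzymes demethylate, and Kmt2e belongs to the same family by sequence. Kmt2d ranged from 1.79 to 3.64 FPKM in females (median 2.73) and from 1.22 to 2.42 in males (median 1.66), a log2 difference of 0.53 ± 0.07 (limma adjusted p = 2.22e-06). Averaged over the 4 vector settings, Kmt2a (0.44), Kmt2e (0.41), Kmt2c (0.41) and Setd1b (0.21) were higher by these log2 differences. The settings were not alike. With the Kdm5 vectors alone, female and male means were 1.66 and 1.66 FPKM for Kmt2c, 6.75 and 6.65 for Kmt2e, and 3.46 and 3.66 for Setd1b. For Kmt2a they were 1.59 and 1.34 FPKM, and for Kmt2d 2.29 and 1.95. Arid1a ranged from 6.76 to 11.03 FPKM in females (median 9.48) and from 4.75 to 7.38 in males (median 5.88), 0.57 ± 0.06 log2 higher (limma adjusted p = 3.82e-08). Tet2, which oxidises 5-methylcytosine, was higher by 0.52, the acetyltransferase gene Kat6a by 0.43, Ncor1 by 0.36, Chd2 by 0.34, Ncoa2 by 0.32 and Chd6 by 0.29 log2. In each of these genes some males reached the range of the females. With the Kdm5 vectors alone Chd2 averaged 2.03 FPKM in females and 2.28 in males. The means of Arid1a, Tet2, Kat6a, Ncor1, Ncoa2 and Chd6 were higher in females there.

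With control vectors alone the 11 higher genes were Setd4 (0.96 log2), Kdm6a (0.83), Hist2h2be (0.66), Kmt2e (0.52), Kat6a (0.51), Hist2h2aa1 (0.48), Tet2 (0.46), Kmt2a (0.46), Kmt2d (0.44), Chd2 (0.40) and Arid1a (0.36). Hist2h2aa1 passed here and not in the average, and the other 10 passed in both. With 1 mouse left out, Setd4, Kdm6a, Kmt2e, Kat6a and Hist2h2aa1 passed in all 6 fits, and the other 6 did not. Without male control mouse 3 the differences of Tet2 (0.30, limma adjusted p = 0.219), Kmt2a (0.31, 0.2), Hist2h2be (0.64, 0.0754), Kmt2d (0.41, 0.0594), Chd2 (0.33, 0.0587) and Arid1a (0.33, 0.0574) did not pass. Without female control mouse 3 the same 6 did not pass, with adjusted p from 0.0615 to 0.112; Tet2 and Hist2h2be also lost the call without female control mouse 2 or male control mouse 2, Kmt2a without female control mouse 1 or male control mouse 2, and Kmt2d and Arid1a without female control mouse 1. In the 3 pairs of groups with hairpins against Kdm5 or Ahr, Hist2h2aa1 was at 43.0 ± 2.02, 55.5 ± 4.93 and 35.3 ± 2.50 FPKM in females and at 45.2 ± 4.75, 49.2 ± 0.403 and 49.6 ± 1.77 FPKM in males. Sirt3 (37.8 to 50.6 FPKM over all mice), the nuclear deacetylase gene Sirt7 (13.2 to 19.1 FPKM), Ncoa4, Smarca2, Chd7, H2afj, Hist1h1c, Hist1h2bc and Hist2h2aa2 did not pass for sex in either comparison.

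Scaling bears on the sex comparison. Rescaling the libraries by median of ratios moved the median female minus male difference of all tested genes from 0.15 to 0.00 log2 with control vectors, and turned its calls from 709 higher and 267 lower genes into 492 higher and 490 lower. The averaged comparison went from 986 higher and 447 lower genes to 862 and 871. After rescaling 15 of 28 chromatin and histone genes were higher in females in the average, without Setd1b (0.10 log2, adjusted p = 0.208), and 6 were lower: Setdb2, H2afj, Sirt7, Ncoa4, Smarca2 and Sirt3. With control vectors alone 4 stayed higher (Setd4, Kdm6a, Kmt2e and Kat6a) and Ncoa4, Smarca2 and Sirt7 were lower. The averaged difference of Kdm6a was 0.73 and that of Arid1a 0.45 log2 after rescaling.

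**Figure D4:**
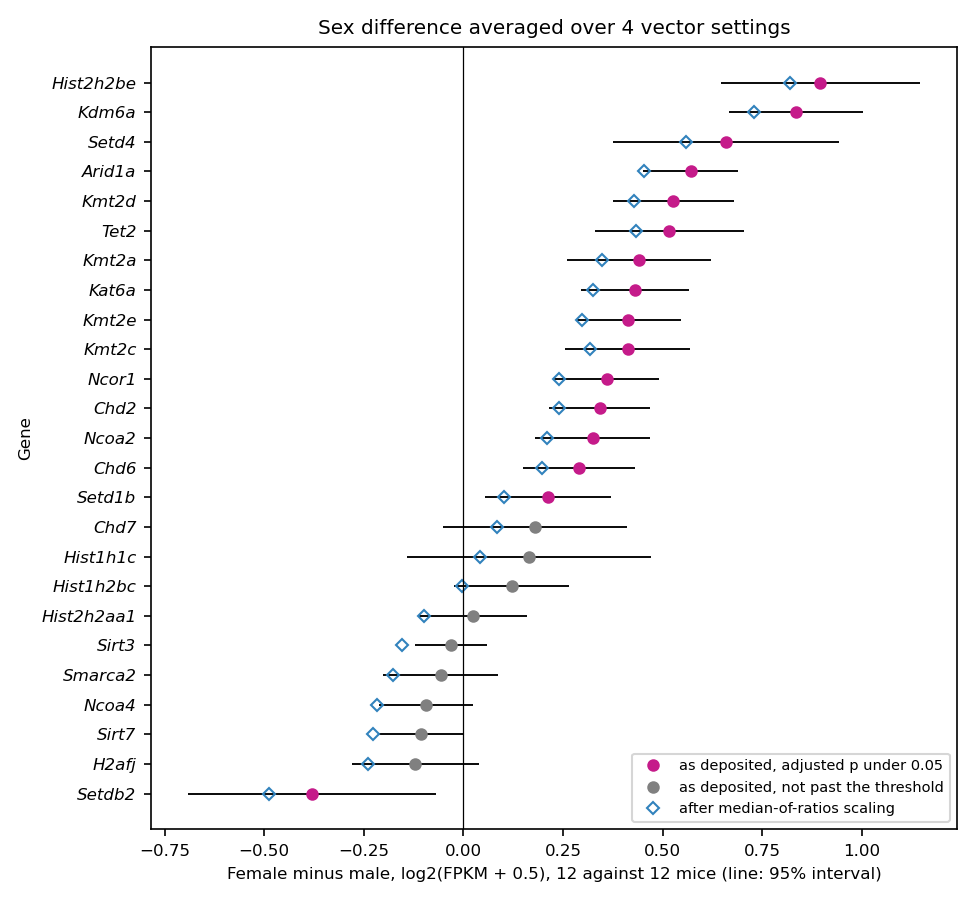
Female minus male difference in log2(FPKM + 0.5), averaged over the 4 vector settings, for 25 tested genes (Hist2h2aa2 is among those left out), with 95% intervals as deposited and open diamonds after median-of-ratios scaling. The points run from Hist2h2be (0.90) and Kdm6a (0.83) down to Setdb2 (-0.38), and rescaling shifts the whole column to the left.

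Transcript length moved with these differences. Of the 28 tested genes 14 have a longest transcript of at least 7000 nt (7317 to 19823 nt), a threshold chosen after seeing the data, and 13 of the 16 genes higher in females in the average are among them; Kdm6a, Setd4 and Hist2h2be are not. The other 253 genes of the table with transcripts this long were higher in females in 83.4% of cases, beside 42.9% of all tested genes and 92.9% of the 14. Their median sex difference was 0.40 log2, against 0.39 for the 14 and 0.04 for the 1996 shorter genes. Under both sets of vectors in females the medians were 0.32, 0.33 and -0.02 log2 in the same order, and in males -0.12, -0.12 and 0.02. For the female minus male difference of these effects they were 0.46, 0.46 and -0.05. Arid1a and Ncoa2 belong to the long class, and Hist2h2aa1, Hist1h1c and Hist1h2bc do not. The part of transcript length in the results was not tested.

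**Figure D5:**
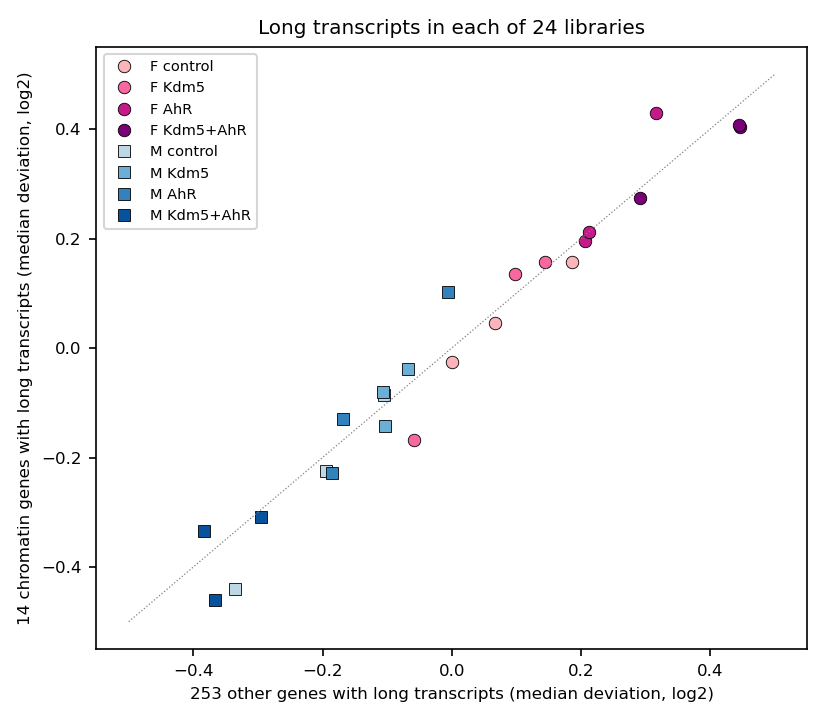
Each point is 1 of 24 libraries; the x axis is the median deviation of 253 other genes with long transcripts from their own means over all libraries and the y axis that of the 14 chromatin genes with long transcripts, both in log2, and the dotted line marks equal values. Females with both sets of vectors lie at the upper right (0.27 to 0.41 for the 14 genes) and males with both at the lower left (-0.46 to -0.31).

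Markers of other liver cells also moved with sex. Of 12 listed markers of Kupffer cells and macrophages 8 were in the table, and all 8 were higher in females in both sex comparisons, with summed levels of 416 to 581 FPKM in females and 214 to 398 in males. The 6 sinusoidal endothelial markers in the table, of 8 listed, summed to 73.1 to 111 FPKM in females and 48.3 to 66.8 in males, and the 4 stellate and fibroblast markers, of 8 listed, to 111 to 174 and 73.8 to 107 FPKM; all 10 were higher in females in the average. The cholangiocyte marker Sox9, 1 of 5 listed, was lower in females with control vectors (-0.81 log2) and in the average (-0.46), and of 3 hepatocyte markers 1 was higher and 1 lower in both. Within females, the endothelial sum lay between 73.1 and 88.2 FPKM with control vectors, 96.1 and 97.9 with the Kdm5 vectors and 96.2 and 111 with both sets. The stellate sum lay between 117 and 131, 137 and 156, and 152 and 174 FPKM in the same order. In females with the AhR vector alone the endothelial sum lay between 86.9 and 97.4 FPKM and the stellate sum between 111 and 138. The median log2 difference of the 6 endothelial markers from control vectors was 0.086 with the Kdm5 vectors, 0.117 with the AhR vector and 0.305 with both sets. The median log2 difference of the 4 stellate markers from control vectors was -0.21 with the Kdm5 vectors and 0.29 with both sets. Under the Kdm5 vectors the sum and the median therefore went opposite ways. The Kdm5 vectors gave calls for 2 endothelial markers, both higher, and 0 of the stellate and macrophage markers, and both sets gave 1 endothelial and 1 stellate marker higher and 0 of the 8 macrophage markers. Markers of T, NK and B cells, neutrophils and proliferating cells were not analysed here. In whole liver, fewer cells of a type and less RNA per cell cannot be told apart, and the part of cell composition in the results was not tested.

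Genes of chromatin outside these name families were read from a list of 127, of which 16 were in the table and tested. In the averaged sex comparison 13 were higher in females and 1 lower, beside 42.9% and 19.4% of all tested genes, among them the linker histone gene H1f0 (0.61 log2), the acetyltransferase genes Ep300 (0.54) and Crebbp (0.51) and the remodeler gene Srcap (0.57); the lower one was the histone chaperone gene Nap1l1 (-0.13). With control vectors 8 were higher, beside 30.8%. Under both sets of vectors in females the methyltransferase genes Ash1l (0.38) and Nsd1 (0.46) and the remodeler gene Pbrm1 (0.54) rose, beside 7.79% of all tested genes, and 0 of 16 passed in the comparisons of single sets of vectors, of both sets in males, or of effects between the sexes. Of the 16, 11 have transcripts of at least 7000 nt, and all 11 were higher in females in the average.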

How the data were processed

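Liver RNA of 24 mice was analysed as deposited. The authors deposited 1 FPKM value per gene and library, per the file headers, rounded to 2 decimals. HISAT, Bowtie2 and GRCm38.p6 are named in the submitters' processing notes; not given in the sources used here are versions, counting, strand and RNA selection (poly(A) or other, on which histone transcript levels depend). How the 2372 genes were chosen is not stated, so adjusted p-values hold within this table. Groups came from the labels; replicate numbers follow sample order and pair nothing. No 2 libraries were identical.

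limma 3.58.1 (R 4.3.3; intensity trend, robust) was fitted to log2(FPKM + 0.5) in all 24 libraries with 8 group means (16 residual degrees of freedom) and 11 contrasts. Genes with 1 FPKM or more in 3 libraries were tested (2299; 73 were not). FPKM holds no depth, so no counting interval is given, and fold changes of low genes are understated. The procedure was tested on simulated data. The members and lists were chosen with earlier results of these data known. Named are the genes past the threshold, the sirtuin, KDM and TET genes and Ncor1, and the highest and lowest gene of each other family; a few further genes stay in the counts and are not reported here. Other genes named were chosen after their values were seen. Promoters came from RefSeq and transcripts from GENCODE M21. Alternatives were another scaling, filters, pseudocounts, fits on the compared groups, each mouse left out, and the Hist2h2aa copies summed.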

Additional observations from a re-analysis of the deposited data

Results flagged for a closer look

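The response to both sets of vectors differed between females and males for Arid1a and Hist2h2aa1, by a limma test of the difference itself (female minus male, log2). The value was 0.64 for Arid1a (adjusted p = 0.0235) and -0.96 for Hist2h2aa1 (adjusted p = 0.00951). Arid1a has a long transcript, and the 253 other genes with long transcripts had a median of 0.46 here, against -0.05 for shorter genes. The part of transcript length was not tested. For Arid1a all 3 females with both sets were above all female controls and all 3 males below all male controls. For Hist2h2aa1 the females were below their controls while the male groups overlapped. The share of all tested genes with such orders between groups of 3 mice was not counted, so the orders are described only. Groups hold 3 mice each, so single mice far from the rest of their group, such as the female control at 85.7 FPKM of Hist1h1c, were not tested.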

How the results depend on the processing

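No called difference reversed. For called genes and for Setdb2 in males, 182 of 203 values under other settings and 501 of 558 with 1 mouse left out kept their side of the threshold, and the other 21 and 57 no longer passed. Most of the 558 belong to the averaged sex comparison, with 24 fits for each gene. Setdb2 in males, which never passed, counts as kept. Against control vectors, Hist1h1c in males with both sets lost its call in 6 of 6 fits. Arid1a, Ncoa2 and Hist1h2bc in females with both sets each lost theirs in 5 of 6. Hist2h2aa1 in females lost it in 1 of 6 under the Kdm5 vectors and kept it in all 6 under both. In fits on the compared groups alone the number of chromatin and histone genes called went from 1 to 0 for the Kdm5 vectors in females. It went from 4 to 1 for both sets in females (none of the 4, but Hist2h2aa2, which is 0 in all controls) and from 11 to 4 for sex with control vectors. Over all genes, the Kdm5 vectors in females gave 1 higher and 0 lower in place of 78 and 80. Both sets in females gave 12 higher and 9 lower in place of 179 and 87. Sex with control vectors gave 511 and 183 in place of 709 and 267. Rescaling gave 7 calls for sex with control vectors. A filter of 5 FPKM, under which fewer genes are tested, gave 3 there and 7 in place of 17 for the averaged sex comparison. With 1 mouse left out the calls ranged from 0 to 2 for the Kdm5 vectors in females (0 without control mouse 1, 2 without control mouse 2), from 0 to 1 for the AhR vector in females (1 without control mouse 3), from 1 to 3 for both sets in females (1 without control mouse 1 or any treated mouse, 2 without control mouse 2), 0 in all 6 fits for both sets in males, from 5 to 12 for sex with control vectors (5 without female or male control mouse 3) and from 16 to 18 for the average. They ranged from 0 to 1 for the sex difference under the Kdm5 vectors (1 without female control mouse 2 or 3) and from 1 to 4 under both (1 without male mouse 3 of both sets). Where no cause is given, the cause was not tested. The averaged comparison uses all groups, so it has no fit on fewer. No paired analysis was possible because the labels give no replicate numbers. Depth is unknown, and 3 mice a group limit the precision.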
